A study of Mus musculus with 2 samples.

Results

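Type I interferon response genes are the genes that cells transcribe when interferon alpha or beta binds its receptor, and 35 of them were followed here across the cell types of mouse bone marrow. They were chosen by symbol, as 35 of the 31053 genes listed in the count matrices. The marrow came from aged recipients of strain C57BL/6J after fecal microbiota transplantation (FMT). In the FMT_young group the microbiota came from young donors and in the FMT_aged group from aged donors, so recipient age and strain were shared and the donor was what differed. Each group was 1 library of single cells on the droplet platform of 10x Genomics, with 3′ v3 chemistry. Both libraries held the same sorted mixture, in which whole marrow and lineage-negative (Lin-) cells were joined by an excess of Lin- cKit+ progenitors. The sources used here do not give the recipients' age in months or the number of animals per library.

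Type I interferons bind a receptor made of Ifnar1 and Ifnar2, which activates the kinases Jak1 and Tyk2. Stat2 is then phosphorylated and, in a complex with Irf9, binds interferon-stimulated response elements in promoters. The genes switched on in this way block virus entry, viral translation and viral replication, and several of them feed back on the pathway itself. In marrow, plasmacytoid dendritic cells are known as strong producers of interferon alpha, and hematopoietic stem cells are known to leave quiescence when they are exposed to it. Several interferon-induced genes also have a high level in stem cells without infection.

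The promoters of the members were searched for a motif of the interferon response. Promoter windows were found in the RefSeq promoter table (build GRCm38.p6) for 27 of the 35 members. The motif GAAANNGAAA, the repeat at the heart of the interferon-stimulated response element, was searched on both strands (TTTCNNTTTC on the other strand) within the 250 bases before the RefSeq start, and overlapping matches were counted. It was present for 12 of the 27 members (44.4%) and for 936 of 27025 genes with a promoter (3.46%). A match is a description of the letters and not of binding. The 200 bases before the gene are printed for 6 members, chosen because they carry the comparisons below: Ifit1, Ifit3 and Isg15 as members with lower levels in FMT_young stem and progenitor cells, Ifit3b as the near copy of Ifit3, Rsad2 as a member with a higher level in FMT_young monocytes, and Bst2 as a member with a very high level in 1 cell type. Capitals mark the motif, and each sequence runs 5′ to 3′ on the strand of its gene. The windows are chr19:34640671-34640870, chr19:34583329-34583528 and chr19:34607757-34607956 on the plus strand, and chr4:156200819-156201018, chr12:26456453-26456652 and chr8:71537473-71537672 on the minus strand.
Ifit1: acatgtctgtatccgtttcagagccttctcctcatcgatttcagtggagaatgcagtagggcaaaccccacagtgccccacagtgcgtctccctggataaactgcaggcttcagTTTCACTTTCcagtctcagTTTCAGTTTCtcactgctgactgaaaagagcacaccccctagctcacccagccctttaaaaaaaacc
Ifit3: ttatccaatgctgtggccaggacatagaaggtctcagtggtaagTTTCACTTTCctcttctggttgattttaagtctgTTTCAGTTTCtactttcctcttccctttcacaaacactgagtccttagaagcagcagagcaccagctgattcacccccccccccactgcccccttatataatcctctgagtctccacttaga
Ifit3b: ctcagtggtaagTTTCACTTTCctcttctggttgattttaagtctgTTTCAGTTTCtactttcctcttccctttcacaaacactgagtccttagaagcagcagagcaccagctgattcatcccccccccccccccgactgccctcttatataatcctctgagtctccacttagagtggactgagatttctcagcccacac
Isg15: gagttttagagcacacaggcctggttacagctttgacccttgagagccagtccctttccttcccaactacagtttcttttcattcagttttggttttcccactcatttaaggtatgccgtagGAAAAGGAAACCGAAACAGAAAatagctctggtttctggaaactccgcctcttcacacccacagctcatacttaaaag
Rsad2: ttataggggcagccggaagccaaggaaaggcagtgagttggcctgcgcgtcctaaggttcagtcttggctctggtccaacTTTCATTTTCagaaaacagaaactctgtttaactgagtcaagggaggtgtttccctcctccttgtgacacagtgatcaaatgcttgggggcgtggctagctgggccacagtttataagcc
Bst2: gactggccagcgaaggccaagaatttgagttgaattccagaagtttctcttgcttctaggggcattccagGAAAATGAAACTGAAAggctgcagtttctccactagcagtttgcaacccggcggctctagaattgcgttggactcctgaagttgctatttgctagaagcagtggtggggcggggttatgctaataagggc

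The Ifit1, Ifit3 and Ifit3b windows held 2 separate motifs each, and those of Isg15 and Bst2 held 3 and 2 that overlapped. The Rsad2 window held 1. Ifit3 and Ifit3b, neighbours on chromosome 19, were 72.0% identical over 232 aligned columns, against 50.2% for Ifit1 and Ifit3. The Ifit3 and Ifit3b windows are offset from each other, and their unmatched ends count as differences. The 72.0% is therefore below the identity of the stretch they share. The other members with a match within 250 bases were Oas3, Oas1a, Ifitm2, Stat2, Ifi203 and Trim30a. In annotation GENCODE vM21 the 35 members are protein-coding genes on 14 chromosomes, with the IFIT family together on chromosome 19, the IFITM family together with Irf7 on chromosome 7, and the OAS family on chromosome 5.

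The count matrices held 214982156 unique molecular identifiers (UMIs, 1 per captured transcript) in the FMT_young library and 207642851 in the FMT_aged library. After filters on cells and removal of likely doublets, 10793 FMT_young and 10320 FMT_aged cells were kept, with a median of 11049 and 11607 UMIs per cell. The libraries shared 32 barcodes among kept cells. Clustering, from which the members and other interferon genes were left out, gave 29 clusters, of which 25 were named from marker genes (6 to 18 markers each). Clusters with Kit UMIs in at least 20% of their cells were kept apart from mature cells of the same lineage, as Kit-rich classes. Kit UMIs were also present in 49.3% of NK-like and 62.7% of conventional dendritic-like cells, each 1 cluster. Names are written as "-like" because no annotation by the authors was used, and 13 classes had at least 50 cells in both libraries. With 1 library per group no difference was tested and none has a replicate check. Counting intervals (95%) describe counting error only, and a difference between these libraries is not shown to be one between the donors' ages.

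All 35 members had UMIs in kept cells of both libraries. Levels are given as CPM, the UMIs of a gene per 1000000 UMIs of the class. UMIs of the members were counted in every class. Among the 13 compared classes their summed level was highest in monocyte-like cells, at 6612 CPM in FMT_young and 7106 CPM in FMT_aged, and lowest in plasma-like cells, at 786 CPM in FMT_young and 694 CPM in FMT_aged. Stem and multipotent progenitor-like cells stood between these, at 2474 CPM in FMT_young and 2623 CPM in FMT_aged. Free RNA, read from barcodes with under 100 UMIs, could make up to 39.6% of plasma-like UMIs in FMT_young and 22.4% in FMT_aged. The summed plasma-like level is therefore not read as expression. The 4 unnamed clusters were left out of this order. One of them, cluster 18, led by Il1b and Acod1, had 7363 CPM in FMT_young and 9780 CPM in FMT_aged, and another, cluster 27, had 4598 and 8829 CPM. The class with the highest level was the same in both libraries for 27 of the 35 members. Monocyte-like cells were that class for 14 members in FMT_young and 12 in FMT_aged, plasmacytoid dendritic-like cells for 7 and 8, and T-like cells for 7 in each. The counting interval of the highest class lay above that of the next class for 18 members in each library. Neighbours in the order of classes could not be told apart by counting error for the other members. These levels describe the classes and are not a test of one class against the rest, since the clusters came from the same cells.

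**Figure D1:**
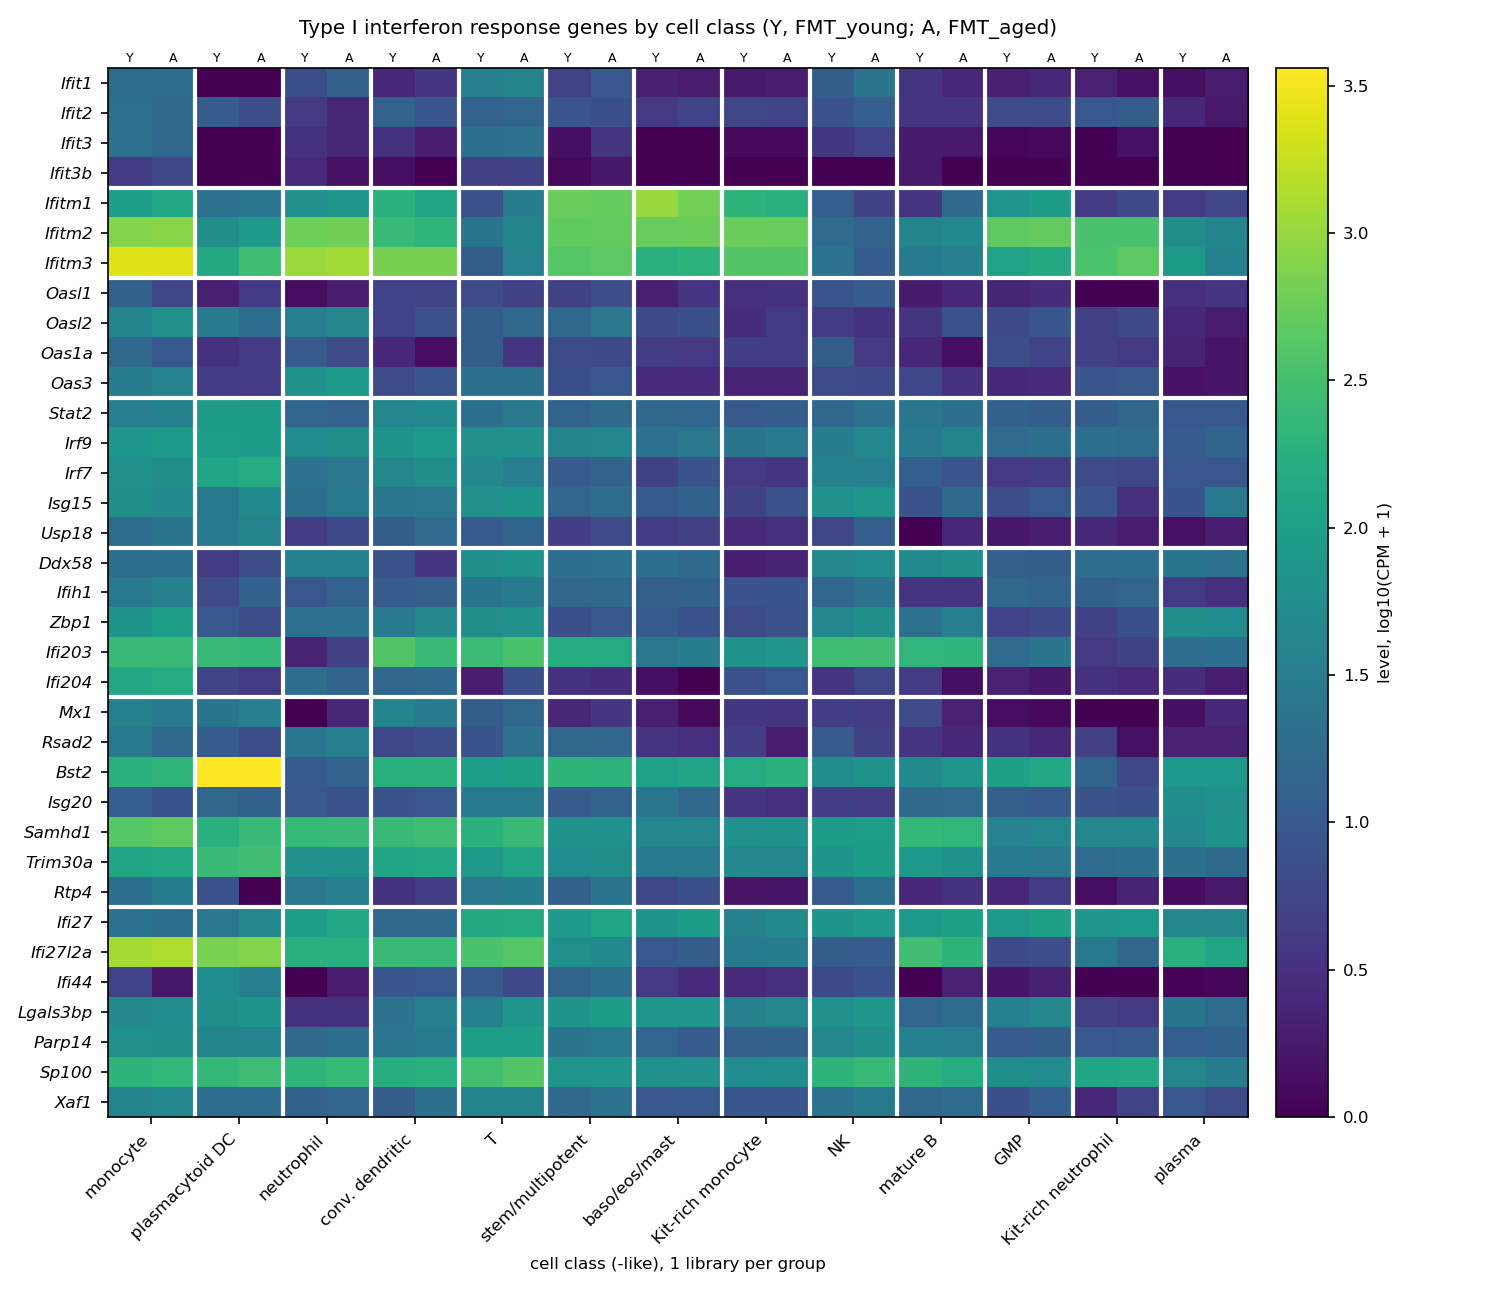
Levels of the 35 members (rows, grouped by role) in the 13 compared classes (columns, FMT_young left of FMT_aged within each class), as log10 of CPM plus 1, 1 library per group. Bst2 is brightest in the plasmacytoid dendritic-like class (3523 CPM in FMT_young, 3632 CPM in FMT_aged) and Ifitm3 in the monocyte-like class (2442 and 2531 CPM), and the 2 columns of a class look alike for most genes.

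The IFITM genes encode small membrane proteins that hinder the fusion of enveloped viruses with the cell. Ifitm3 had 2442 CPM (2395 to 2490) in FMT_young monocyte-like cells and 2531 CPM (2473 to 2590) in FMT_aged ones. The next class was neutrophil-like, with 1051 CPM in FMT_young and 1179 CPM in FMT_aged. Ifitm2 followed the same order, with 788 CPM in FMT_young and 844 CPM in FMT_aged monocyte-like cells. Ifitm1 had another distribution. It was highest in the basophil, eosinophil or mast-like class, at 1040 CPM in FMT_young and 635 CPM in FMT_aged, and next highest in stem and multipotent progenitor-like cells, at 551 CPM in FMT_young and 528 CPM in FMT_aged.

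The IFIT genes encode cytosolic proteins that bind viral RNA and stop its translation, and all 4 had few UMIs in most classes. Ifit1 was highest in T-like cells, at 34.7 CPM (24.5 to 47.9) in FMT_young and 37.6 CPM (28.6 to 48.6) in FMT_aged. Its median over the 13 classes was 1.5 CPM in FMT_young and 1.52 CPM in FMT_aged. Ifit2 was highest in monocyte-like cells of both libraries, and Ifit3 and Ifit3b were highest in monocyte-like or T-like cells with intervals that overlapped. Among the OAS genes, whose products sense double-stranded RNA and make oligoadenylates that activate RNase L, Oas3 was highest in neutrophil-like cells, at 65.3 CPM in FMT_young and 80.2 CPM in FMT_aged. Oasl2, an OAS-like gene, was highest in monocyte-like cells, at 39.2 CPM in FMT_young and 61.0 CPM in FMT_aged.

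Of the 5 signalling and feedback members, 4 were highest in plasmacytoid dendritic-like cells. Irf7, the factor that drives transcription of the interferon alpha genes, had 127 CPM there in FMT_young and 154 CPM in FMT_aged. Stat2, a subunit of the factor that binds the response element, had 88.2 CPM in FMT_young and 86.1 CPM in FMT_aged. Both stood above every other compared class beyond counting error. Irf9, which gives that factor its DNA contact, and Usp18, a protease that removes Isg15 from proteins and dampens the receptor, also had their highest level there, with intervals that overlapped the next class. Bst2, which tethers budding virions to the cell, had 3523 CPM in FMT_young and 3632 CPM in FMT_aged plasmacytoid dendritic-like cells, while its next highest class had 207 CPM in FMT_young and 209 CPM in FMT_aged. The TRIM family gene Trim30a was also highest there, at 259 CPM in FMT_young and 291 CPM in FMT_aged.

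Isg15, a ubiquitin-like protein that is attached to other proteins, was highest in NK-like cells, at 63.2 CPM in FMT_young and 76.4 CPM in FMT_aged, within counting error of T-like cells. T-like cells had the highest level of Parp14, an ADP-ribosyltransferase (93.9 CPM in FMT_young, 97.9 CPM in FMT_aged), and of Sp100, a nuclear body protein (307 CPM in FMT_young, 403 CPM in FMT_aged). Ddx58, which encodes the RNA sensor RIG-I, was highest in T-like cells at 59.2 CPM in FMT_young and 67.4 CPM in FMT_aged, and lowest in Kit-rich monocyte-like cells at 1.02 and 1.27 CPM. Monocyte-like cells were highest for the nucleotide hydrolase Samhd1 (423 CPM in FMT_young, 472 CPM in FMT_aged), the small hydrophobic protein gene Ifi27l2a (1191 CPM in FMT_young, 1343 CPM in FMT_aged), the Z-nucleic acid sensor Zbp1 (68.3 CPM in FMT_young, 93.9 CPM in FMT_aged) and Ifi204 of the PYHIN family (136 CPM in FMT_young, 152 CPM in FMT_aged), which is among the leading genes of that cluster. The exonuclease Isg20 was highest in plasma-like cells, at 54.5 CPM in FMT_young and 62.6 CPM in FMT_aged, a class otherwise low in the members.

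A few cells were rich in IFIT UMIs. Cells with at least 5 UMIs over Ifit1, Ifit2, Ifit3 and Ifit3b numbered 38 of 10793 in FMT_young (0.352%, Clopper-Pearson interval 0.249 to 0.483) and 33 of 10320 in FMT_aged (0.320%, 0.220 to 0.449). The 2 intervals overlapped. These cells held 424 of the 1550 IFIT UMIs in FMT_young (27.4%) and 369 of 1630 in FMT_aged (22.6%), so most IFIT UMIs lay outside them. In FMT_young these cells were shallower than the rest, with a median of 7290 UMIs against 11066, and in FMT_aged with 7383 against 11635. The IFIT genes alone chose them, so the other 31 members were free to differ. All 31 were higher in these cells than in the other cells of the FMT_young library, and 30 of 31 were in the FMT_aged library, the exception being Ifi27 (73.5 against 82.8 CPM). The share of all genes that were higher in these cells was not computed, so the counts are not read as particular to the members. The antiviral radical-SAM enzyme gene Rsad2 had 429 CPM in these cells against 5.08 CPM in the others in FMT_young, and 417 against 3.55 CPM in FMT_aged. Isg15 had 640 against 8.95 CPM in FMT_young, and 423 against 13.8 CPM in FMT_aged. Among the 30 members higher in both, Ifitm2 differed least, with 618 against 428 CPM in FMT_young and 723 against 458 CPM in FMT_aged.

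Cell type was part of that contrast, since monocyte-like cells made up 15 of the 38 cells in FMT_young and 8 of the 33 in FMT_aged. Within the monocyte-like class the share of such cells was 3.76% in FMT_young (2.12 to 6.12) and 2.797% in FMT_aged (1.22 to 5.44). They held 82.6% of the class's IFIT UMIs in FMT_young and 67.1% in FMT_aged. The same share varied among the other classes. It was 27.5% in FMT_young and 41.03% in FMT_aged stem and multipotent progenitor-like cells. T-like cells had 27.03% in FMT_young and 49.6% in FMT_aged, from 3 and 5 such cells. Conventional dendritic-like cells had 32.6% and 38.5%, from 2 and 3 such cells. The share was smaller in granulocyte-monocyte progenitor-like cells, at 4.6% in FMT_young and 0% in FMT_aged. Kit-rich monocyte-like cells had 8.25% and 10.9%, and NK-like cells 12.3% and 11.5%. Within the monocyte-like class 31 of 31 other members in FMT_young and 28 of 31 in FMT_aged had a higher level in the IFIT-rich cells than in the rest. Here too the share over all genes was not computed. The summed level of the 31 members was 21779 against 6077 CPM in FMT_young and 21969 against 6738 CPM in FMT_aged. In both libraries, then, a small number of cells carried many IFIT transcripts together with most other members, and the stem and multipotent progenitor-like class held 5 such cells in FMT_young and 7 in FMT_aged.

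**Figure D2:**
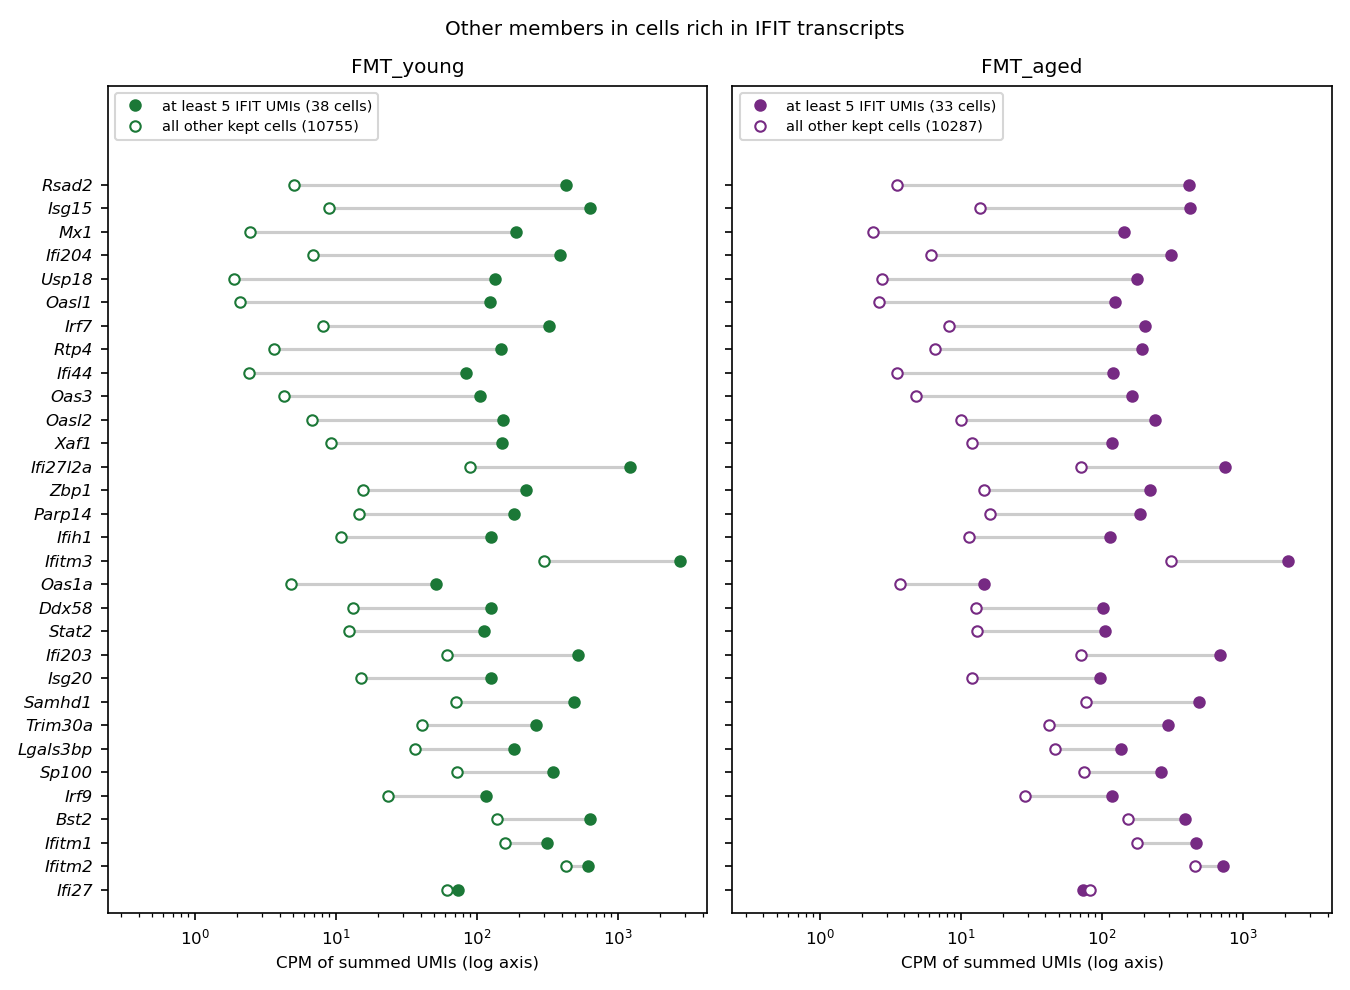
CPM of the 31 members outside the IFIT family in cells with at least 5 IFIT UMIs (filled points) and in all other kept cells (open points), FMT_young on the left (38 and 10755 cells) and FMT_aged on the right (33 and 10287 cells), on a log axis. Filled points lie to the right of open points for every gene except Ifi27 in FMT_aged, with 73.5 against 82.8 CPM.

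Stem and multipotent progenitor-like cells are the class the transplant study centres on, as its title names hematopoietic stem cells. The class held 1057 FMT_young and 1307 FMT_aged cells in 2 clusters. Cluster 4 was led by the stem cell genes Mecom, Hlf and Procr, and cluster 7 by Dntt and Flt3, which mark lymphoid-primed multipotent progenitors. Of the 35 members, 34 had at least 50 UMIs over both libraries. Of these, 26 were lower and 8 higher in FMT_young, with a median log2 ratio of FMT_young over FMT_aged of -0.29 (order-statistic interval over members, -0.44 to -0.07). Of all 11349 genes with as many UMIs 67.0% were lower in FMT_young, against 76.5% of the members, and their median was -0.08. Past 1.5-fold, 7 of the 34 were lower in FMT_young (Ifit1, Ifit3, Oasl2, Usp18, Mx1, Rtp4 and Ifi27) and 0 were higher, where 2.77% of all genes were past it on the lower side and 3.29% on the higher side. That count is sensitive to the filters: it was 2 lower and 1 higher with a limit of 5% mitochondrial UMIs, and 4 lower without doublet removal or with at least 2000 UMIs per cell. Without the 5 FMT_young and 7 FMT_aged cells rich in IFIT UMIs, 4 were lower and 1 was higher and the median was -0.21.

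Roles differed in how far apart the libraries were. The summed level of the IFITM family was 1460 CPM in FMT_young and 1485 CPM in FMT_aged, a log2 ratio of -0.02. The nucleic acid sensors (Ddx58, Ifih1, Zbp1, Ifi203 and Ifi204) had 200.2 CPM in FMT_young and 205 CPM in FMT_aged in sum, a log2 ratio of -0.03. That sum is set mostly by Ifi203 (159 CPM in FMT_young, 156 CPM in FMT_aged), and the median log2 ratio of the 5 sensors was -0.18. The OAS family had 31.0 CPM in FMT_young and 44.1 CPM in FMT_aged, a log2 ratio of -0.51 (-0.68 to -0.34), and the IFIT family 12.8 CPM in FMT_young and 17.8 CPM in FMT_aged, a log2 ratio of -0.47 (-0.74 to -0.21). Without the cells rich in IFIT UMIs the IFIT family had 137 UMIs in FMT_young and 194 in FMT_aged, a log2 ratio of -0.17 whose interval (-0.50 to 0.15) spans 0. Signalling and feedback members, with 77.3 CPM in FMT_young and 96.4 CPM in FMT_aged, had a log2 ratio of -0.32 (-0.43 to -0.21). Other antiviral effectors (Mx1, Rsad2, Bst2, Isg20, Samhd1, Trim30a and Rtp4) had a log2 ratio of -0.05 in sum, set mostly by Bst2, and the remaining induced genes of -0.27.

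The member with the largest gap among those with more than 200 UMIs was Rtp4, a chaperone-like protein of the receptor transporter family with antiviral activity. It had 166 UMIs (11.3 CPM) in FMT_young and 410 UMIs (22.2 CPM) in FMT_aged, a log2 ratio of -0.97 (-1.24 to -0.71). Cells with an Rtp4 UMI made up 11.4% of FMT_young and 19.0% of FMT_aged cells of the class. Oasl2 had 220 UMIs (14.95 CPM) in FMT_young and 463 UMIs (25.0 CPM) in FMT_aged, a log2 ratio of -0.74 (-0.98 to -0.51). Ifi27, a small hydrophobic membrane protein gene, had 1181 UMIs (80.3 CPM) in FMT_young and 2287 UMIs (124 CPM) in FMT_aged, a log2 ratio of -0.62 (-0.73 to -0.52). Its UMIs were spread over 52.4% of FMT_young and 64.7% of FMT_aged cells, with at most 10 in 1 FMT_young cell and 17 in 1 FMT_aged cell. All 3 stayed below 0 in each of the alternative settings tried, with Rtp4 between -0.99 and -0.64.

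The IFIT genes of the class rested on few molecules. Ifit3 had 6 UMIs in FMT_young and 45 in FMT_aged, but 24 of the 45 came from 1 cell. Ifit1 had 65 UMIs (4.42 CPM) in FMT_young and 154 UMIs (8.33 CPM) in FMT_aged, a log2 ratio of -0.91 (-1.36 to -0.49), and again 24 of the 154 came from 1 cell. Without the cell that held the most UMIs in each library, the log2 ratio was -2.06 for Ifit3 and -0.83 for Ifit1. Ifit2 went the other way, with 115 UMIs (7.82 CPM) in FMT_young and 117 UMIs (6.33 CPM) in FMT_aged, a log2 ratio of 0.30 whose interval (-0.08 to 0.69) spans 0. Of the 115 FMT_young UMIs 20 came from 1 cell. The Ifit2 ratio was 0.079 without the richest cell of each library and was below 0 in 6 of the alternative settings, down to -0.63 at clustering resolution 2. Ifit3b had 3 UMIs in FMT_young and 13 in FMT_aged and was too sparse to be compared. Mx1, a GTPase whose C57BL/6 allele is known to be defective, had 21 UMIs in FMT_young and 50 in FMT_aged, a log2 ratio of -0.92 (-1.73 to -0.16).

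All 5 signalling and feedback members were lower in FMT_young, by less than Rtp4. Usp18 had a log2 ratio of -0.63 (53 UMIs in FMT_young, 103 in FMT_aged) and Irf7 of -0.41 (138 UMIs in FMT_young, 231 in FMT_aged). Isg15 had 198 UMIs (13.5 CPM) in FMT_young and 327 UMIs (17.7 CPM) in FMT_aged, a log2 ratio of -0.39 (-0.66 to -0.14). Stat2 and Irf9, at -0.35 and -0.22, were nearer to 0, and Stat2 ranged from -0.40 to 0.19 over the alternative settings. Among other members the log2 ratio was -0.57 for Oasl1, -0.54 for the cytosolic protein gene Ifi44, -0.49 for Zbp1 and -0.44 for Xaf1, a pro-apoptotic binding partner of XIAP. It was -0.36 for Isg20, and -0.34 for both Oas3 and the secreted glycoprotein gene Lgals3bp.

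Smaller ratios filled the middle of the list. Parp14 (-0.24), Ddx58 (-0.22), Ifih1 (-0.18), which encodes a sensor of long double-stranded RNA, and Trim30a (-0.13) were below the median of all genes. Ifitm3 was at -0.11, Sp100 at -0.07, and Ifitm2 and Samhd1 were both at -0.04. Ifi203 (0.02), Bst2 (0.05), Ifitm1 (0.06), Rsad2 (0.10), Oas1a (0.17) and Ifi204 (0.24) were on the higher side. Ifi27l2a was the highest, with 896 UMIs (60.9 CPM) in FMT_young and 908 UMIs (49.1 CPM) in FMT_aged, a log2 ratio of 0.31 (0.18 to 0.45). Its sign depended on the filters and clusters: over the alternative settings it ranged from -0.62, with at least 2000 UMIs per cell, to 0.38. In all, 12 of the 34 ratios of this class had the opposite sign under at least 1 alternative setting, and none of the 12 was past 1.5-fold in the main setting.

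**Figure D3:**
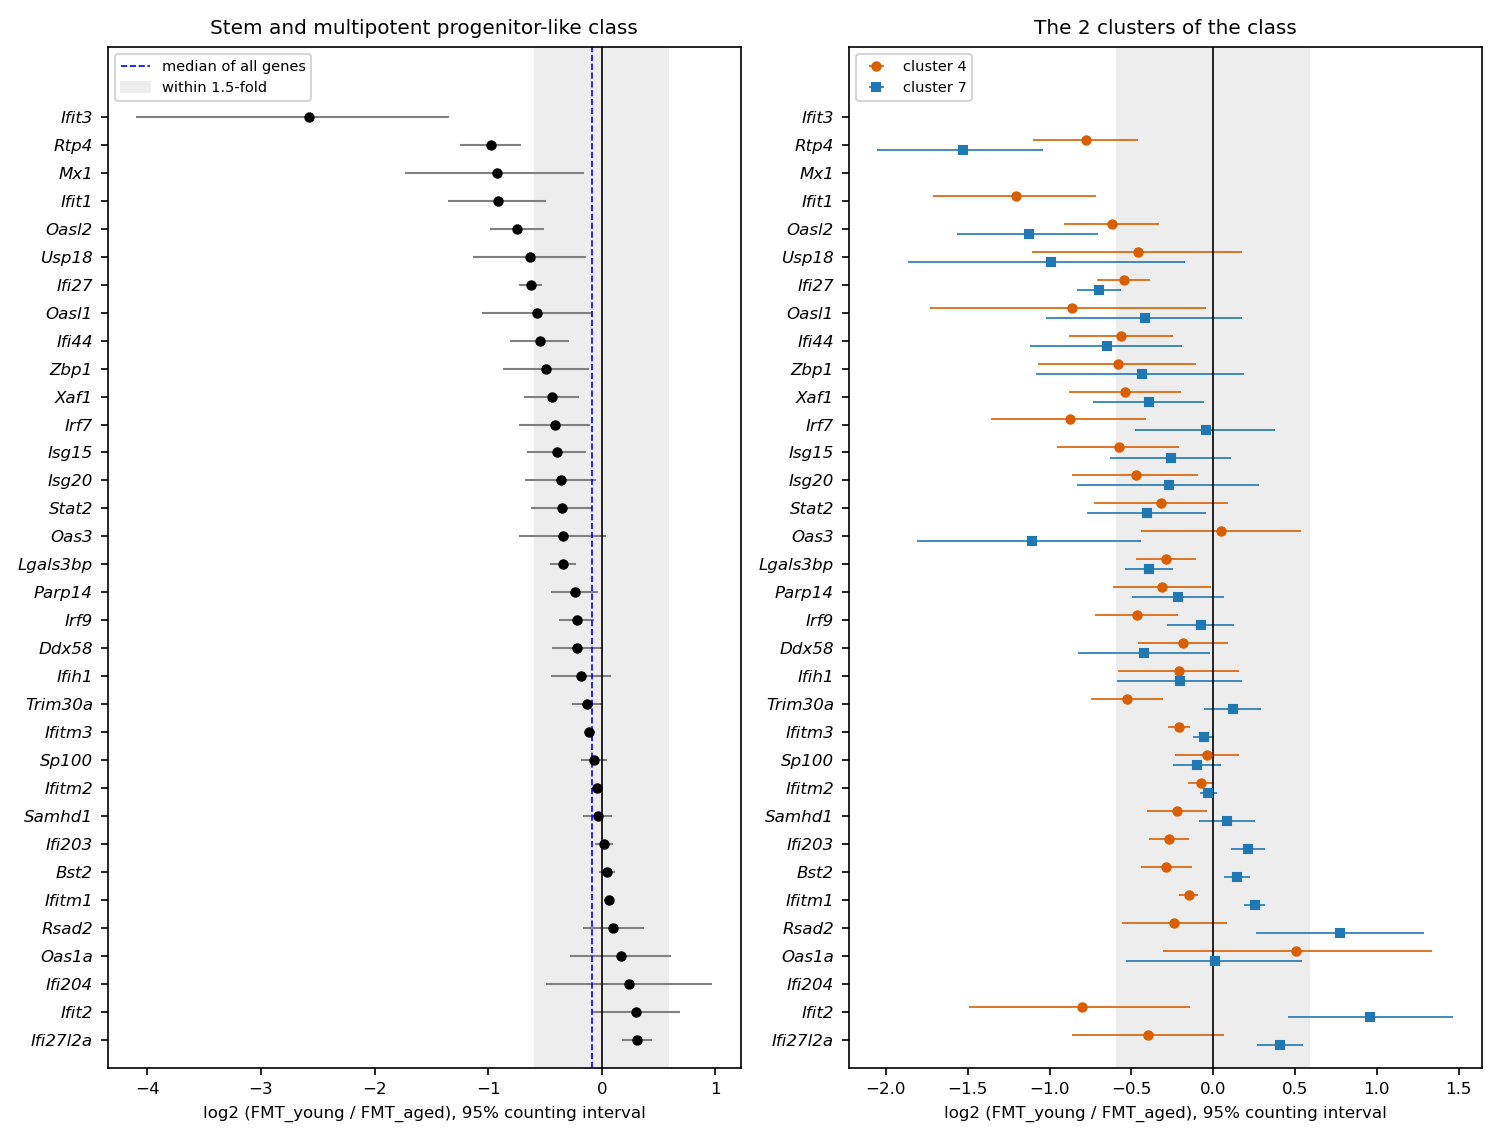
Log2 ratio of FMT_young over FMT_aged (points) with 95% counting intervals (lines) for the 34 members with at least 50 UMIs in the stem and multipotent progenitor-like class (left) and in its clusters 4 and 7 (right). The band marks 1.5-fold and the dashed line the median of all genes (-0.08). Ratios run between -2.58 for Ifit3 and 0.31 for Ifi27l2a.

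The 2 clusters of the class did not give the same picture. In cluster 4 (577 FMT_young and 680 FMT_aged cells), 29 of 31 members with at least 50 UMIs were lower in FMT_young, as were 70.3% of all genes, and the median log2 ratio was -0.40, with -0.13 for all genes. Past 1.5-fold, 6 were lower and 0 higher in FMT_young, where 5.45% of all genes were lower and 2.93% higher by as much. In cluster 7 (480 FMT_young and 627 FMT_aged cells), 21 of 30 were lower (62.9% of all genes) and the median was -0.21, with -0.06 for all genes. There 6 were past 1.5-fold on the lower side and 2 on the higher, where 2.98% and 3.17% of all genes were. The difference between the clusters was not tested, as each has 1 library per group.

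Which genes stood out differed as well. Irf7 had 12.6 CPM in FMT_young and 23.2 CPM in FMT_aged cells of cluster 4 (log2 ratio -0.88), but 7.98 and 8.24 CPM in cluster 7 (-0.05). Ifit1 had 10.8 CPM in FMT_young and 24.9 CPM in FMT_aged cells of cluster 4 (-1.20), and was below 50 UMIs in cluster 7. Oas3 was close in cluster 4, with 15.3 CPM in FMT_young and 14.8 CPM in FMT_aged, while in cluster 7 it had 2.53 CPM in FMT_young and 5.44 CPM in FMT_aged (-1.11). Ifit2 (-0.80 in cluster 4, 0.96 in cluster 7), Ifi27l2a (-0.40 and 0.41) and Ifitm1 (-0.15 and 0.25) had opposite signs in the 2 clusters. Rtp4, Oasl2 and Ifi27 were lower in FMT_young in both: Rtp4 by a log2 ratio of -0.78 in cluster 4 and -1.53 in cluster 7, Oasl2 by -0.62 and -1.13, and Ifi27 by -0.55 and -0.70. In cluster 4 the levels of most IFIT and OAS members, Rtp4 and Irf7 were above those in cluster 7 in both libraries. Ifi27l2a, at 14.9 CPM in FMT_young cells of cluster 4 and 80.7 CPM in those of cluster 7, was the reverse.

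Across the 13 compared classes, 311 pairs of member and class had at least 50 UMIs. In 226 pairs the member was lower in FMT_young and in 85 it was higher. The lower pairs were 72.7% of the members' pairs and 58.7% of those of all genes. Past 1.5-fold there were 32 pairs lower and 14 higher, of 311. Over all genes and the same classes, 4.79% of pairs were lower and 4.9% higher by as much. The median over members was below the median of all genes in 12 of the 13 classes, the basophil, eosinophil or mast-like class being the exception. Summed over all members, the level was lower in FMT_young in 9 of the 13 classes. Classes share a library, so their agreement in sign is not a count of independent observations.

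**Figure D4:**
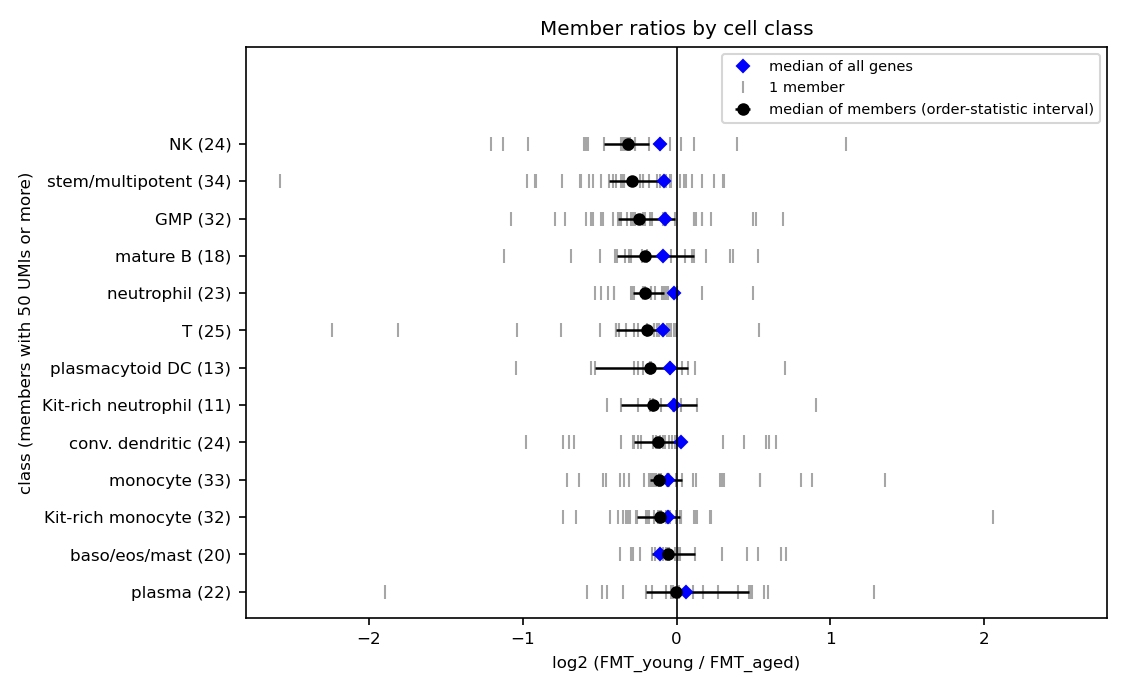
Log2 ratio of FMT_young over FMT_aged by class: each tick is 1 member with at least 50 UMIs, black points are medians over members with their order-statistic interval, and blue diamonds are medians over all genes with as many UMIs. Classes run by median, with NK-like cells (-0.32) at the top and plasma-like cells (-0.00) at the bottom.

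Of the 34 members with at least 50 UMIs in 3 or more classes, 5 (14.7%) were lower in FMT_young in every such class, and of all 11333 such genes 886 (7.82%) were. Nothing is read from so small a number of members. Usp18, Oas3 and Ifit1 were so in 6 of 6 classes each, Rtp4 in 6 of 6 and Oasl2 in 5 of 5. Oas1a, which like Oas3 makes oligoadenylates, was the only member that was higher in all of at least 3 such classes, in 4 of 4. That is 2.94% of the 34 members, and of all 11333 such genes 453 (4.00%) were higher in every class. Samhd1 was lower in 12 of 13 classes, Irf9 in 11 of 13 and Ifi27 in 11 of 12. Rsad2 was higher in 4 of 5. Oas1a shares 56.1% of the 50-base words in the last 500 bases of its transcript with other genes, mainly Oas1g, and Ifitm2 shares 41.9%, Ifit3 14.9% and Ifitm3 14.0%, so the split of reads between these genes and their near copies is uncertain.

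In NK-like cells (657 FMT_young and 916 FMT_aged), 20 of 24 members were lower in FMT_young (66.4% of all genes), with a median log2 ratio of -0.32, and -0.11 for all genes. Past 1.5-fold 5 were lower and 1 higher, where 5.47% of all genes were lower and 2.91% higher by as much. Ifit1 had 10.2 CPM in FMT_young and 22.2 CPM in FMT_aged (log2 ratio -1.13, -1.79 to -0.49). Usp18 had 4.57 CPM in FMT_young and 10.5 CPM in FMT_aged (-1.21) and Rtp4 9.49 and 18.5 CPM (-0.97). These genes had at most 3 UMIs in 1 FMT_aged cell, 4 for Rtp4, so no single cell set them. Ifitm3 was higher in FMT_young (21.4 against 9.98 CPM), but without doublet removal its log2 ratio was -0.56.

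In T-like cells (382 FMT_young and 558 FMT_aged), 24 of 25 members were lower in FMT_young (62.3% of all genes), with a median of -0.19, and -0.09 for all genes. Past 1.5-fold 4 were lower (Ifitm1, Ifitm2, Ifitm3 and Lgals3bp) and 0 higher, where 7.35% of all genes were lower and 4.32% higher by as much. Lgals3bp had 35.7 CPM in FMT_young and 73.3 CPM in FMT_aged, a log2 ratio of -1.04 (-1.61 to -0.50), with at most 2 UMIs in 1 cell. The IFITM genes rested on few cells. Ifitm1 had 7 UMIs in FMT_young and 48 in FMT_aged, 27 of them in 1 cell, and Ifitm3 had 11 in FMT_young and 56 in FMT_aged, 17 of them in 1 cell. Without the cells richest in each gene, their log2 ratios were -1.27 and -1.43 in place of -2.24 and -1.81. Free RNA could make up to 7.13% of this class's UMIs in FMT_young and 3.73% in FMT_aged. That upper estimate took up all FMT_young UMIs of Ifitm1 and Ifitm3, so neither had a ratio after subtraction. Their T-like ratios are therefore not read as expression. Lgals3bp was at -1.05 after subtraction.

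B-lineage classes differed from each other. In mature B-like cells (324 FMT_young and 515 FMT_aged), 11 of 18 members were lower (57.6% of all genes), with a median of -0.21, and -0.09 for all genes. 2 were past 1.5-fold on the lower side and 0 on the higher, where 15.2% and 7.16% of all genes were, so the members' share was not above the background. Isg15 had 9 UMIs in FMT_young and 43 in FMT_aged (log2 ratio -1.12), and with a limit of 5% mitochondrial UMIs the ratio was 0.19. Bst2 (-0.50) and Ifi27 (-0.38) were lower in FMT_young, and Ifi27l2a, with 294 CPM in FMT_young and 203 CPM in FMT_aged (0.53), and Sp100 (0.34) were higher. Free RNA could make up to 19.4% of this class's UMIs in FMT_young and 10.7% in FMT_aged. With that share subtracted the median over members was -0.06, and the log2 ratios were -1.27 for Isg15, -0.89 for Bst2 and 0.63 for Ifi27l2a. In plasma-like cells (1243 FMT_young and 716 FMT_aged), 11 of 22 members were lower and 11 higher, with 42.01% of all genes lower. Past 1.5-fold 1 was lower and 2 were higher, where 5.85% and 10.3% of all genes were. Isg15 had 7.36 CPM in FMT_young and 27.4 CPM in FMT_aged (-1.90, or -1.70 without the cell with 52 of its 326 FMT_aged UMIs and its FMT_young counterpart). Samhd1 (-0.49) and Irf9 (-0.45) were lower too, while Ifitm3 (86.4 CPM in FMT_young, 35.4 CPM in FMT_aged, 1.29), Ifitm2 (0.49) and Ifi27l2a (0.49) were higher. Different clusters held this class in the libraries: cluster 10 had 915 FMT_young and 3 FMT_aged cells and cluster 21 had 6 and 320. Progenitor genes such as Fcnb were among the leading genes of another of its clusters, number 26, with 103 FMT_young and 27 FMT_aged cells. The same upper estimate of free RNA, from neutrophil genes, reached 39.6% for FMT_young and 22.4% for FMT_aged plasma-like cells. With it subtracted the median over members was -0.15, in place of -0.00. The log2 ratios were then -2.42 for Isg15, -1.08 for Samhd1 and 0.66 for Ifi27l2a. Ifitm3, Ifitm2 and Irf9 had no ratio left, as the estimate took up all their UMIs in at least 1 library. Ifitm3 had 286 CPM in FMT_young and 293 CPM in FMT_aged free RNA. The plasma-like values of these 3 genes are therefore not read as expression.

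Among myeloid classes, monocyte-like cells (399 FMT_young and 286 FMT_aged) had members on both sides. Of 33 members 22 were lower (59.3% of all genes), with a median of -0.11, and -0.06 for all genes. Past 1.5-fold 2 were lower and 3 higher, where 3.18% of all genes were lower and 3.99% higher by as much. Rtp4 had 19.0 CPM in FMT_young and 31.2 CPM in FMT_aged (log2 ratio -0.71), Oasl2 39.2 and 61.0 CPM (-0.64) and Ifitm1 93.7 and 130.4 CPM (-0.48). Oasl1, which in mouse represses translation of Irf7, had 11.7 CPM in FMT_young and 4.56 CPM in FMT_aged (1.35), Oas1a 15.5 and 8.41 CPM (0.88) and Rsad2 26.4 and 15.1 CPM (0.81). The cells rich in IFIT UMIs weighed on this class. Without them 24 of 28 members were lower, 4 past 1.5-fold on the lower side and 1 on the higher, and the median was -0.20. Rsad2 then had 9.56 CPM in FMT_young and 7.87 CPM in FMT_aged, and Oasl1 4.905 and 3.22 CPM. Oas1a had 12.8 and 7.87 CPM. The IFIT family in sum, at 61.4 CPM in FMT_young and 53.3 CPM in FMT_aged in the whole class, had 11.04 CPM in FMT_young and 17.9 CPM in FMT_aged. Isg15, at 57.6 CPM in FMT_young and 47.3 CPM in FMT_aged in the whole class, had 22.6 CPM in FMT_young and 38.3 CPM in FMT_aged. That alternative was chosen after the data were seen.

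In neutrophil-like cells (536 FMT_young and 383 FMT_aged), 20 of 23 members were lower (52.7% of all genes), with a median of -0.21, and -0.02 for all genes. None of the 23 was past 1.5-fold, where 3.44% of all genes were lower and 5.23% higher by as much. Ifi27 had 95.4 CPM in FMT_young and 130 CPM in FMT_aged (log2 ratio -0.45), and Ifitm3 1051 and 1179 CPM (-0.17). In the Kit-rich neutrophil-like class, 8 of 11 members were lower (52.005% of all genes), with a median of -0.15, and -0.01 for all genes. Past 1.5-fold 0 were lower and 1 was higher, Ifi27l2a, with 26.6 CPM in FMT_young and 14.2 CPM in FMT_aged (0.91), where 3.19% and 4.67% of all genes were. Ifitm3 had 360.0 CPM there in FMT_young and 462 CPM in FMT_aged (-0.36).

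Granulocyte-monocyte progenitor-like cells were the most numerous class, with 3051 FMT_young and 2715 FMT_aged cells. There 23 of 32 members were lower (66.0% of all genes), with a median of -0.24, and -0.08 for all genes. Past 1.5-fold 4 were lower and 1 higher, where 2.93% of all genes were lower and 3.27% higher by as much. Rtp4 had 1.55 CPM in FMT_young and 3.28 CPM in FMT_aged (log2 ratio -1.08, -1.44 to -0.72), Xaf1 6.48 and 10.7 CPM (-0.72) and Oasl2 5.36 and 8.06 CPM (-0.59). Oas1a (0.50) and Rsad2 (0.52) were higher in FMT_young. So was Ifi204 (0.69), whose log2 ratio was -0.10 with at least 2000 UMIs per cell and -0.021 with interferon genes kept in the clustering. Cluster 6 of this class was shallow (678 cells in FMT_young, 444 in FMT_aged), and the median without it, an alternative added after the data were seen, was -0.26. In cluster 0, 58.6% of members were lower (62.8% of all genes), in cluster 3 63.3% (62.2%) and in cluster 5 64.0% (63.0%). In cluster 6 it was 83.3% (68.8%). Their medians were -0.10, -0.12, -0.15 and -0.43, with -0.06, -0.06, -0.07 and -0.15 for all genes. Free RNA could make up to 80.9% of cluster 6 UMIs in FMT_young and 75.0% in FMT_aged, so the values of cluster 6 are not read as expression. Cluster mix differed between the libraries, with 1061 FMT_young and 857 FMT_aged cells in cluster 0 and 667 and 808 in cluster 3. The part of this mix in the class values was not tested.

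Kit-rich monocyte-like cells (1346 FMT_young and 1565 FMT_aged) had 22 of 32 members lower in FMT_young (62.99% of all genes) and a median of -0.11, with -0.05 for all genes. Past 1.5-fold 2 were lower and 1 higher, where 1.77% and 3.13% of all genes were. Isg15 had 3.99 CPM in FMT_young and 6.67 CPM in FMT_aged (log2 ratio -0.74), or -1.15 without the richest cell of each library, as 41 of its 137 FMT_young UMIs came from 1 cell. Ifi27 (-0.43) and Bst2 (-0.26) were lower as well. Rsad2 was higher, with 3.56 CPM in FMT_young and 0.85 CPM in FMT_aged, a log2 ratio of 2.06 (1.5 to 2.64). At most 10 of its 122 FMT_young UMIs were in 1 cell. Ifitm1 was higher by 0.22.

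Dendritic and basophil-lineage classes had members on both sides. In conventional dendritic-like cells (211 FMT_young and 291 FMT_aged), 18 of 24 members were lower (45.8% of all genes), with a median of -0.12, and 0.03 for all genes. Past 1.5-fold 4 were lower and 2 higher, where 3.43% and 6.11% of all genes were. Xaf1 (-0.98), Zbp1 (-0.74) and Lgals3bp (-0.67) were lower in FMT_young. Ifi203, of the PYHIN family, had 386 CPM in FMT_young and 257 CPM in FMT_aged (0.58), Ifitm1 187 and 119 CPM (0.65) and Ifitm2 260.3 and 211 CPM (0.30). Free RNA could make up to 18.04% of this class's UMIs in FMT_young and 5.4% in FMT_aged. With that share subtracted the median over members was 0.0061, and the log2 ratios were -1.19 for Xaf1 and 0.78 for Ifi203. In plasmacytoid dendritic-like cells (139 FMT_young and 56 FMT_aged), 9 of 13 were lower (54.6% of all genes), with a median of -0.17, and -0.04 for all genes. Past 1.5-fold 1 was lower, Ifitm3 (138 CPM in FMT_young, 285 CPM in FMT_aged, -1.04), and 1 higher, Ifi44, where 7.17% and 7.87% of all genes were. The Ifitm3 ratio was 0.051 when cells were assigned by marker score in place of clusters. Samhd1 was lower as well (-0.53). In the basophil, eosinophil or mast-like class (247 FMT_young and 370 FMT_aged), 12 of 20 (60%) were lower, a smaller share than the 63.7% of all genes, with a median of -0.06, and -0.10 for all genes. 0 were past 1.5-fold on the lower side and 2 on the higher, Ifitm1 (0.71) and Isg20 (23.9 CPM in FMT_young, 14.9 CPM in FMT_aged, 0.68), where 5.8% and 4.25% of all genes were. Ifi27 was lower (-0.37).

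Ligands and receptors were taken from a list of 100 other pathway genes, of which 98 had a row in the matrices. Ligand transcripts were nearly absent. Over all kept cells Ifnb1 had 1 UMI in FMT_young and 7 in FMT_aged, Ifna2 and Ifna16 had 1 each in FMT_young and 0 in FMT_aged, Ifnab had 0 and 1, and Ifnk 0 and 2. Ifnz had 5 UMIs in FMT_young and 16 in FMT_aged. No level can be compared from such counts.

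In stem and multipotent progenitor-like cells, 9 of 9 listed receptors and first signalling steps had at least 50 UMIs, 6 lower and 3 higher in FMT_young. Of all genes with as many UMIs in this class 67.0% were lower, so that split was near the background. The receptor chain Ifnar1 had 31.7 CPM in FMT_young and 35.2 CPM in FMT_aged (log2 ratio -0.15, -0.33 to 0.02), and Ifnar2 had 102 CPM in FMT_young and 96.6 CPM in FMT_aged (0.08, -0.02 to 0.18). Jak1 was at -0.01 and Tyk2 at -0.20. Socs1, an inhibitor of the receptor's kinases, had 12.98 CPM in FMT_young and 7.52 CPM in FMT_aged (0.79) and was the only one of these past 1.5-fold. Of 52 further interferon-induced genes 48 had at least 50 UMIs. Of these 40 were lower and 8 higher, with a median of -0.26, and -0.08 for all genes. Past 1.5-fold 4 were lower and 3 higher, where 2.77% of all genes were lower and 3.29% higher by as much. Farthest from 0 were Gm4951 (4.83 CPM in FMT_young, 10.3 CPM in FMT_aged, -1.10) and the immunity-related GTPase gene Irgm2 (5.30 and 9.25 CPM, -0.80) on the lower side, and Ifi209 of the PYHIN family (37.0 and 22.1 CPM, 0.75) on the higher side. The transcription factor gene Irf8, listed with the inducers of interferon and also a factor of monocyte and dendritic cell development, had 425 CPM in FMT_young and 257 CPM in FMT_aged (0.73). Among 12 inducers with at least 50 UMIs, 8 were lower and 4 higher, again near the share of all genes.

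The members were also counted per cell. With each cell thinned to 2000 UMIs, cells with UMIs of at least 3 members made up 73.0% of stem and multipotent progenitor-like cells in FMT_young (70.2 to 75.7, 8 shallower cells left out) and 75.5% in FMT_aged (73.1 to 77.8, 3 left out). Without thinning the shares were 99.6% in FMT_young and 99.8% in FMT_aged. The largest gaps between libraries whose intervals did not overlap were in granulocyte-monocyte progenitor-like cells, with 27.03% in FMT_young and 36.3% in FMT_aged (347 and 99 shallower cells left out), and in NK-like cells, with 35.8% (32.1 to 39.7) in FMT_young and 44.7% (41.3 to 48.0) in FMT_aged (21 and 36 left out). The granulocyte-monocyte progenitor-like share was not split by cluster, and the cluster mix of that class differed between the libraries. Kit-rich monocyte-like cells had 43.7% in FMT_young and 50.2% in FMT_aged (11 and 15 left out). Monocyte-like cells were near the ceiling, at 93.2% in FMT_young and 95.02% in FMT_aged (4 and 5 left out). Plasma-like cells, the lowest class, had 16.5% in FMT_young and 11.9% in FMT_aged (4 and 4 left out). As free RNA could make up to 39.6% of plasma-like UMIs in FMT_young and 22.4% in FMT_aged, these lowest shares are not read as expression.

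**Figure D5:**
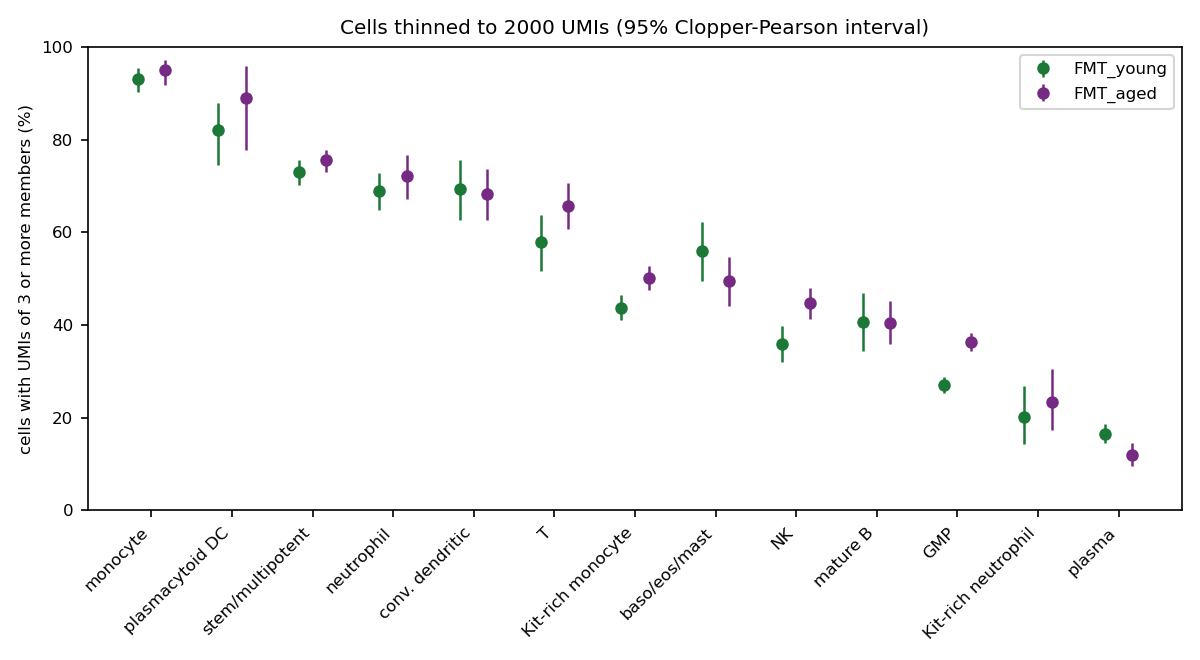
Percent of cells with UMIs of at least 3 of the 35 members after thinning every cell to 2000 UMIs, by class, FMT_young left of FMT_aged, with 95% Clopper-Pearson intervals for counting error. Monocyte-like cells (93.2% in FMT_young, 95.02% in FMT_aged) stand highest and plasma-like cells (16.5% and 11.9%) lowest.

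Free RNA, read from barcodes with under 100 UMIs, also had a lower CPM in FMT_young for 23 of 35 members, with a median log2 ratio of -0.09. In the stem and multipotent progenitor-like class it could account for up to 1.71% of UMIs in FMT_young and 1.75% in FMT_aged, and subtracting it left the count past 1.5-fold at 7. Depth and mitochondrial share of the class were close, with a median of 10313 UMIs per cell in FMT_young and 10715 in FMT_aged, and 3.37% mitochondrial UMIs in FMT_young and 3.71% in FMT_aged.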

How the data were processed

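Single-cell RNA libraries of bone marrow from 1 FMT_young and 1 FMT_aged sample were used. The deposited matrices hold raw UMI counts per gene and barcode, written by Cell Ranger 3.1.0 per the file headers, on build mm10 per the submitters' processing notes. The deposited gene and barcode lists give names, not values, and no column of another sample was present (0 not used). Cells needed at least 1000 UMIs, 500 genes and at most 10% mitochondrial UMIs. Doublets were scored against simulated pairs (30 principal components, 2 pairs per cell), and the top 0.8% per 1000 cells were removed, 1139 in FMT_young and 1031 in FMT_aged.

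Cells of both libraries were clustered together (Leiden, resolution 1, 2000 variable genes, 40 components, 20 neighbours) with 133 interferon genes left out. Clusters were named by the type with the largest share of its listed markers passing. A marker had to be seen in at least 10% of cells and at 1.5 times the level elsewhere, with 3 or more per name. A cluster stayed unnamed where another type had more markers among its 10 leading genes, or where it was shallow (median UMIs far under its library's) with none of its own there. The rule for ties and the 20% limit on Kit were set after clusters were seen. UMIs were summed per class and library. A ratio needed 50 UMIs over both libraries, a call 1.5-fold. Poisson, conditional binomial and Clopper-Pearson intervals (95%) cover counting error only. With 1 library per group no model was fitted. The interval method was tested on simulated data.

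Genes named are all members in the stem and multipotent progenitor-like class, the 3 per direction with the interval farthest from 0 in each other class, each member's highest class, and the 2 further pathway genes per direction by the same rule, with every ligand that had a UMI. Other names (those past 1.5-fold in small counts, and the receptors) were chosen after their values were seen. The members and lists were chosen with earlier results of these data known. Alternatives varied doublet removal, mitochondrial and UMI limits, clustering, class assignment, scaling (TMM), averaging over cells, free RNA, the richest cell, the UMI minimum and thinning. Python 3.11.15, numpy 2.4.6, scipy 1.17.1, pandas 2.3.3, scikit-learn 1.9.0, leidenalg 0.10.2, igraph 0.11.9 and matplotlib 3.10.9 were used.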

Additional observations from a re-analysis of the deposited data

How the results depend on the processing

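No paired analysis was possible because each group has 1 library and no replicate numbers. The median log2 ratio of the members stayed below 0 under every alternative run for the stem and multipotent progenitor-like class (-0.34 to -0.11), the NK-like (-0.34 to -0.23), T-like (-0.33 to -0.11), granulocyte-monocyte progenitor-like (-0.27 to -0.03), neutrophil-like (-0.31 to -0.14) and Kit-rich monocyte-like classes (-0.15 to -0.06), and changed sign under at least 1 alternative in the other 7. In the main setting the median of all genes was itself below 0 in the classes that stayed below 0. It was -0.08, -0.11, -0.09, -0.08, -0.02 and -0.05, in the order named. It is not given for the alternatives, so staying below 0 is not a gap from all genes. The granulocyte-monocyte progenitor-like range reached nearer to 0 than that class's all-gene median. Counts past 1.5-fold moved more than medians. In the stem and multipotent progenitor-like class the 7 lower members became 4 without doublet removal, 2 at 5% mitochondrial UMIs (with 1 higher), 4 with at least 2000 UMIs per cell, 4 with marker score classes, 4 with a minimum of 200 UMIs per gene, and 4 (with 1 higher) without cells rich in IFIT UMIs. Over the 13 classes the 32 lower pairs became 21 at 5% mitochondrial UMIs, 57 with a minimum of 10 UMIs and 12 with 200, and the 14 higher pairs became 26 at resolution 2, 38 with a minimum of 10 and 4 with 200. The UMI minimum also changes how many genes are compared. The cause of these changes was not tested.

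Medians that moved were those of the neutrophil-like class (-0.29 with at least 2000 UMIs, -0.31 with interferon genes kept in the clustering), the plasmacytoid dendritic-like class (0.17 with interferon genes kept, 0.18 with marker score), the monocyte-like class (0.10 with marker score, -0.20 without IFIT-rich cells), the T-like class (-0.11 with TMM scaling) and the basophil, eosinophil or mast-like class (-0.19 as a mean over cells). The conventional dendritic-like median turned to 0.0084 with at least 2000 UMIs and 0.0061 after subtraction of free RNA. Monocyte-like cells were the highest class for 2 members in FMT_young and 1 in FMT_aged with marker score, which adds Kit-rich cells to that class. The share of stem and multipotent progenitor-like cells with at least 3 members was 94.6% in FMT_young and 95.004% in FMT_aged at 4000 UMIs, and 99.6% and 99.8% without thinning. Ratios past 1.5-fold that turned were Ifitm3 in NK-like cells (-0.56 without doublet removal), Isg15 in mature B-like cells (0.19 at 5% mitochondrial UMIs), Ifi204 in granulocyte-monocyte progenitor-like cells (-0.10 with at least 2000 UMIs, -0.021 with interferon genes kept) and Ifitm3 in plasmacytoid dendritic-like cells (0.051 with marker score). The cause of these was not tested. Smaller ratios changed sign too. In the stem and multipotent progenitor-like class 12 of 34 did (Ifi27l2a to -0.62, Ifit2 to -0.63, Ifi203 to -0.28, Bst2 to -0.22 and Stat2 to 0.19 at the farthest, and Ifitm1, Ifitm2, Oas3, Rsad2, Sp100, Samhd1 and Ifi204), as did Ifitm1 in monocyte-like cells (0.19 with marker score) and Bst2 in mature B-like cells (0.0004 as a mean over cells). Of the other values of single ratios 712 stayed within the counting interval of the main value, 6 of them with the opposite sign, and 109 moved out of it, 33 with the opposite sign. At 5% mitochondrial UMIs the plasmacytoid dendritic-like class had under 50 FMT_aged cells and gave no value, and with marker score the Kit-rich classes do not exist. Members at a few CPM, such as Ifit3 and Mx1, are limited by depth, and all differences by having 1 library per group.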
